A study of Mus musculus with 108 samples.

Results

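The fragments described here came from reporter-positive cells at the start and at the end of a blood differentiation course, mouse embryonic stem cells (ES) and hematopoietic progenitors (HP). They were chosen by sample label: all libraries sorted as Low, Medium, High or Medium/High for Venus-YFP at the ES and HP stages, which were 28 of the 108 samples of the series, 14 of each stage. In this screen, fragments cut out of open chromatin by Tn5 transposase at each of the differentiation stages were cloned before the HSP68 minimal promoter and a Venus-YFP gene, and the cassette was placed at Hprt in the HM-1 line of ES cells. All cells compared therefore carried the same reporter design in the same cell line and locus, and cells were sorted by YFP before the inserted fragments were sequenced. The ES samples were undifferentiated HM-1 cells. The HP samples were derived from them by differentiation in serum, by way of FLK1+ cells grown further with VEGF and IL-6, and were sorted as KIT+ TIE2- CD41+. The 10 Negative libraries of the same 2 stages held fragments from cells without YFP and served as the background. The labels number the replicates from 1 to 5 and do not say whether these were separate transfections or cultures, so the p-values below measure the spread between these samples, which may be partly technical.

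The positive libraries of a stage and replicate were united into 1 set, which gave 5 ES and 5 HP sets. A sample listed between 778 and 99435 distinct fragments, with a median of 7368. The ES sets held 99945, 103317, 29162, 5142 and 2185 fragments in replicates 1 to 5, and the HP sets held 193427, 66597, 2308, 2805 and 4493. Replicates 1 and 2 thus outweighed the others in anything pooled. For this reason the stages were compared at equal numbers, with the larger set of each replicate number drawn down to the smaller, which left 173840 fragments per stage. The 10 sets held 426653 distinct fragments of 1176712 in the whole series, 128897 of them distal, which in the authors' lists means more than 1500 bp from a transcription start. Of these, 23978 were found with identical ends at both stages, 11.98% of the ES and 9.57% of the HP fragments. The lists give each fragment once and no reads, so read depth is unknown for them, and a fragment's presence says only that it was recovered. A positive set can also hold inserts whose cells were in the gate without activity of the insert. HP Negative replicate 3 stood apart from the other Negative libraries of HP in composition, so background values are given with and without it.

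An enhancer is a stretch of DNA that binds several transcription factors and raises the activity of a promoter, often from a distance and only in some cell types. In ES cells such elements are bound by pluripotency factors such as OCT4, SOX2, ESRRB and KLF4, whereas TEAD proteins read out the Hippo pathway. As blood forms, factors of the GATA, RUNX, ETS and TAL1 families take over: GATA2 and RUNX1 are needed for blood progenitors to arise from endothelium, TAL1 binds E-boxes beside GATA factors, and PU.1, an ETS factor encoded by Spi1, directs myeloid cells. Promoters of genes that every cell uses are, by contrast, commonly open in all cell types.

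To show what these elements look like, the sequences of 6 recovered distal fragments are printed, each on the plus strand of mm10 (GRCm38), with capitals marking the short binding sequences searched (below). The first 3 were recovered from HP only and were shown for their blood factor motifs among HP-only sites found in at least 3 replicates, the next 2 for SOX, KLF or TEAD motifs among such ES-only sites, and the last from both ends. The choice by motif was made after the values were seen, so it is an illustration and not evidence of a share.
HP only, chr5:75962281-75962465, in an exon of Kdr, with RUNX, PU.1, TEAD and GATA matches: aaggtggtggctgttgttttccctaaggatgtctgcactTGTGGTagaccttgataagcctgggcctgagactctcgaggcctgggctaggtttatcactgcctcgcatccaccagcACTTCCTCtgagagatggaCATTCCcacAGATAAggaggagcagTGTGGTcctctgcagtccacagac
HP only, chr6:38341809-38341928, in an intron of Zc3hav1, with RUNX, GATA and TAL1 E-box matches: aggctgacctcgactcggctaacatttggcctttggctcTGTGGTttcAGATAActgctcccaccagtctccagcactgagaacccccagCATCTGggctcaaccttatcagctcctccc
HP only, chr5:149391966-149392108, intronic, nearest start that of Medag, with PU.1, GATA and RUNX matches: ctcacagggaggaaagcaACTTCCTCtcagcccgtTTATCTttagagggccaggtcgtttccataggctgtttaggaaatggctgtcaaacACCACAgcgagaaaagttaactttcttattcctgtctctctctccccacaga
ES only, chr11:19020437-19020678, intergenic, 1573 bp from a start of Meis1, with NFY, KLF/SP and TEAD matches: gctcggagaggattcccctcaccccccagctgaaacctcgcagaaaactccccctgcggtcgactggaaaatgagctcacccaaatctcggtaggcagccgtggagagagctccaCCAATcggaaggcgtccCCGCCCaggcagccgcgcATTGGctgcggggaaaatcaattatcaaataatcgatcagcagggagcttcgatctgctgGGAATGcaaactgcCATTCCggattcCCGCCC
ES only, chrX:94865832-94866058, intergenic, nearest start that of Zxdb, with KLF/SP, ETS, TEAD and SOX matches: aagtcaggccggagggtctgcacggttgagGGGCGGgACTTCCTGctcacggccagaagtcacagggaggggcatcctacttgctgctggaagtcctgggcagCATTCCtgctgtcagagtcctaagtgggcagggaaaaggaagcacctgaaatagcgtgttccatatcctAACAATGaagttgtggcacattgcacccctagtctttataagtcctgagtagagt
Both, chr7:73537855-73538103, in an intron of Chd2, with KLF/SP, CRE, NFY and ETS matches: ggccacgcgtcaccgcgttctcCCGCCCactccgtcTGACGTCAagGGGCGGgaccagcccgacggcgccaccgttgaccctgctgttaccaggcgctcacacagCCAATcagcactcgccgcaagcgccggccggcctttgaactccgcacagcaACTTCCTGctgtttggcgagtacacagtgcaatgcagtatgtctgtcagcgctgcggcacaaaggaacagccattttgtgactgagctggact

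At the numbers of fragments listed, most promoters were found in positive cells at both ends, whereas most distal sites were found at 1 end only. Distal fragments that overlapped were merged into sites, and a promoter was the protein-coding start within 1500 bp of a promoter fragment. At equal numbers, 27363 distal sites were found, of which 7027 (25.7%) came from ES only, 13117 (47.9%) from HP only and 7219 (26.4%) from both. The SD over 100 draws was 28.3, 49.0 and 22.8 sites. The draws equalised all fragments, and on average they held 42193 distal fragments of ES and 58266 of HP. With equal numbers of distal fragments, an added alternative, 26580 sites were found. Of these, 7901 (29.7%) came from ES only, 11562 (43.5%) from HP only and 7117 (26.8%) from both. Of 13317 promoters found in the draws of all fragments, 1036 (7.78%) came from ES only, 1106 (8.30%) from HP only and 11175 (83.9%) from both. The promoter majority depends on these numbers: with all 10 sets drawn to the smallest, 33.7% of 7119 promoters and 9.41% of 4771 distal sites were found at both ends. Seen from each end, the shared sites were 50.7% of the ES and 35.5% of the HP distal sites, and the shared promoters were 91.5% and 91.0%. The Negative libraries gave the same order, with shared sites at 41.5% of ES and 30.7% of HP distal sites and shared promoters at 83.0% and 85.3%, so a larger shared part among promoters was seen in both kinds of library. In the full lists without draws, 25.9% of 32857 distal sites were found in ES only and 48.3% in HP only, and of 13621 promoters 6.75% were found in ES only and 7.74% in HP only.

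**Figure D1:**
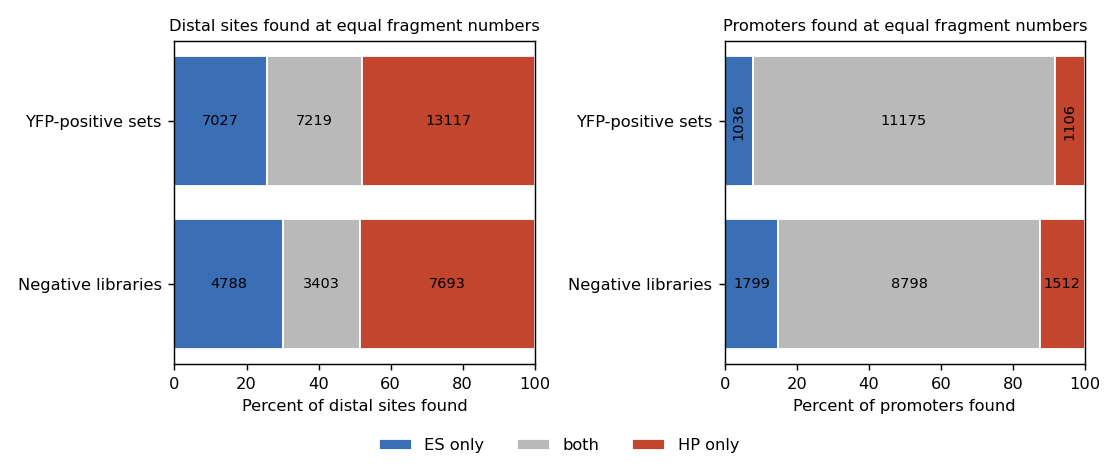
Distal sites and promoters found at equal fragment numbers in ES only (blue), in both (grey) and in HP only (red), as a percent of all found, for the YFP-positive sets and for the Negative libraries; numbers in the bars are means of 100 draws. Of the promoters 83.9% were found at both ends in positive cells, and of the distal sites 26.4%.

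Few 1-end sites were seen often. Of the 8522 ES-only distal sites in the full lists, 5432 were in 1 replicate, 2395 in 2, 626 in 3, 62 in 4 and 7 in all 5. Of the 15860 HP-only sites, 10309 were in 1 replicate, 5065 in 2, 446 in 3, 39 in 4 and 1 in all 5. Among promoters, 14 ES-only ones were in all 5 replicates and 57 in 4, while for HP only 4 were in 4 replicates and none in 5. At the other extreme, 2 distal sites and 37 promoters were found in all 10 sets.

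A site that was positive at 1 end was, in nearly all cases, not listed at the other end in any gate. Only 156 (1.83%) of the 8522 ES-only distal sites had a fragment in an HP Negative library, whereas 2693 (31.6%) had one in an ES Negative library. Of the HP-only sites, 495 (3.12%) had a fragment in an ES Negative library and 6082 (38.3%) in an HP Negative one. Turned around, 9150 distal sites were listed at both ends in some gate, and 8475 of them (92.6%) were positive at both, 156 (1.70%) at ES only and 495 (5.41%) at HP only. Of the 11852 promoters listed at both ends, 11647 (98.3%) were positive at both. The 1-end classes thus mostly record whether a site was listed at a stage at all. They could hardly show a move between the Negative and the positive gates. At equal numbers the positive sets, each of 2 or 3 libraries, held 173840 fragments per stage and the Negative libraries 62922. ES-only and HP-only distal sites also had medians of 1 and 2 positive fragments. Identical fragments are compared by gate below. According to the methods the lists had been limited to open chromatin peaks, and the part of that filter was not tested. Plasmid lists were searched only for fragments with ends identical to those of a sorted fragment from any stage of the series. The following shares are therefore not the plasmid coverage of the sites. Of the ES-only sites, 62.4% had such a fragment in the plasmid lists cloned from ES chromatin and 15.1% in those from HP chromatin. Of the HP-only sites, 42.9% had one in the ES plasmid lists and 32.9% in the HP plasmid lists.

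**Figure D2:**
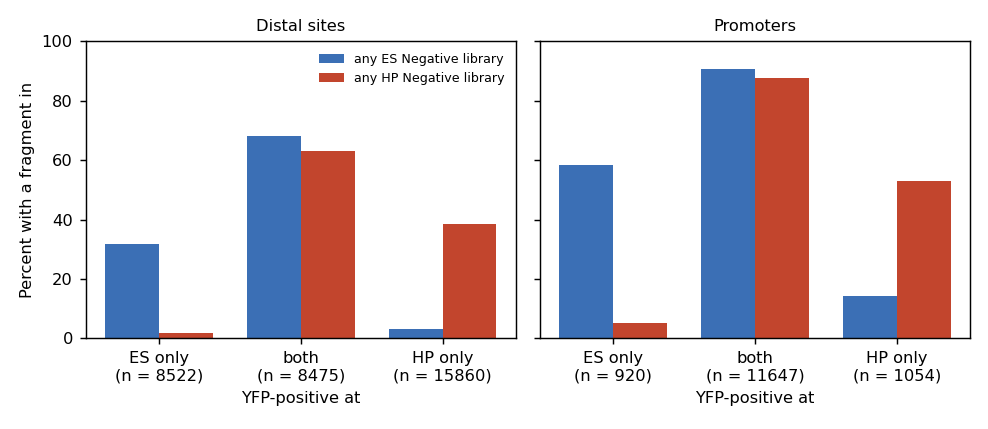
Percent of distal sites (left) and promoters (right) in each class of YFP-positive finding, full lists, that also had a fragment in any ES Negative (blue) or any HP Negative (red) library; n is the number of sites or promoters. ES-only distal sites were in HP Negative libraries in 1.83% of cases and HP-only sites in ES Negative libraries in 3.12%.

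The most recurrent ES-only distal sites lay nearest to Limd1, Sox12, Dnajb12, Rbx1 and Cactin, each found in all 5 ES sets. Whether their sequences also occur elsewhere in the genome was not examined. The site nearest Limd1, which overlaps the annotated Lars2 gene, held 14, 15, 6, 1 and 1 fragments in ES replicates 1 to 5 and none in any HP set. It was in no HP Negative library either. Of its sorted fragments from any stage, 14 were in the HP reporter vector list and 50 in the HP entry vector list. The site in Sox12, a gene of a SOX family transcription factor, held 10, 12, 7, 1 and 1 fragments in the ES sets. That beside Dnajb12, which encodes a chaperone of the endoplasmic reticulum, held 9, 7, 2, 1 and 1. For both sites all 5 HP sets were at 0.

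Among recurrent HP-only distal sites, those nearest to Tmem236, Peg3, Trim8 and Afap1l1 were each found in 4 HP sets. The site nearest Tmem236 held 23, 7, 0, 1 and 1 fragments in HP replicates 1 to 5. That in an intron of Peg3, an imprinted zinc finger gene, held 20, 9, 0, 1 and 1. No ES set and no ES Negative library listed either. The Kdr fragment printed above belonged to a site with 5, 1, 0, 1 and 1 fragments in the HP sets and none in ES. Kdr encodes the VEGF receptor FLK1.

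Sites found at both ends included one in an intron of Chd2, a chromatin remodeller gene, which held 31, 29, 4, 3 and 1 fragments in the ES sets and 37, 17, 1, 1 and 2 in the HP sets. Another, nearest to Zfp958, held 28, 30, 7, 5 and 1 in ES and 35, 10, 1, 1 and 3 in HP. Both sites were found in all 10 sets, and fragments of both were also in the Negative libraries, 34 in ES and 26 in HP for the Chd2 site.

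The most recurrent ES-only promoters were those of mt-Nd5, Sfi1, Atp5g1, Pwwp2a and Txndc11, each in all 5 ES sets. Copies of these sequences elsewhere in the genome were not searched for. At Sfi1, which encodes a centrosomal protein, the ES sets held 65, 65, 15, 2 and 2 fragments and all HP sets 0. At Atp5g1, which encodes a subunit of ATP synthase, they held 35, 36, 5, 3 and 1, and at Pwwp2a, which encodes a chromatin reader protein, 31, 40, 5, 3 and 1. None of these promoters was listed in an HP Negative library. Of the sorted Sfi1 promoter fragments from any stage, 49 were in the HP reporter vector list and 145 in the HP entry vector list. The start of mt-Nd5 lies on the mitochondrial genome and is treated below.

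Among HP-only promoters that of Podxl led. Podxl encodes podocalyxin, a sialomucin of endothelium and blood progenitors, and held 29, 2, 4, 0 and 1 fragments in the HP sets and none in ES or ES Negative libraries. The promoters of Mylk3, Ptms and Atg4b were also in 4 HP sets, with 12, 10 and 5 fragments in all. The promoter of Aatk was in 3 HP sets with 34 fragments, and 1 fragment of it was in an ES Negative library. Promoters found in all 10 sets included Dnpep, an aminopeptidase gene, with 139 fragments in all ES sets and 147 in all HP sets, and Gsk3b, the kinase of the WNT pathway, with 56 fragments in all ES sets and 89 in all HP sets.

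Windows centred on distal fragments from positive HP cells held binding sequences of blood factors more often than those from positive ES cells. To ask this, 18 short sequences were searched on both strands in the 150 bp around each distal fragment's centre, so that the searched length was the same for every fragment. The window was read from the genome, so for fragments shorter than 150 bp it included flanking sequence that was not in the insert. The shares were compared between the 5 ES and the 5 HP sets by an exact two-sided permutation test over all splits of the 10 sets, adjusted over the 18 (Benjamini-Hochberg). The smallest p this design allows is 0.0079. For 7 motifs the ES and HP sets did not overlap, and these 7 passed with an adjusted p of 0.0204.

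The GATA sequence AGATAA was in 4.50, 4.37, 4.75, 3.78 and 4.44% of distal fragments in ES replicates 1 to 5 and in 8.96, 8.47, 9.66, 7.29 and 9.83% in HP. The mean rose from 4.37% ± 0.359 to 8.84% ± 1.03 (SD, n = 5 each; exact permutation test, adjusted p = 0.0204). Every HP set was above every ES set. Over all distal fragments of the series the share was 8.94%, so ES stood below it and HP near it. The RUNX sequence TGTGGT rose from 10.5% ± 0.523 to 13.8% ± 0.898, the ETS sequence CAGGAAGT from 2.37% ± 0.229 to 4.09% ± 0.511 and the TAL1 E-box CAGATG from 10.8% ± 0.246 to 13.7% ± 0.774. In all 5 same-numbered pairs each of these shares was higher in HP.

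Lower in HP were TEAD, NRF1 and the MYC E-box. The TEAD sequence GGAATG fell from 9.79% ± 0.598 to 7.97% ± 0.757. The NRF1 sequence GCATGCGC, bound by a factor of respiratory and housekeeping genes, fell from 0.971% ± 0.249 to 0.483% ± 0.265, and the MYC E-box CACGTG from 3.70% ± 0.192 to 3.00% ± 0.416. The remaining 11 did not pass. Among them, PU.1 (GAGGAAGT) stood at 1.54% in ES and 2.57% in HP (adjusted p = 0.0649 by the exact permutation test), and KLF/SP (CCGCCC) at 18.4% and 15.0% (adjusted p = 0.0536). The OCT4 octamer ATGCAAAT stood at 1.09% and 0.705% (adjusted p = 0.0833 by the exact permutation test). AP-1 (TGANTCA) stood at 7.13% and 7.41% (adjusted p = 0.696). The other sequences were SOX (CATTGTT), ESRRB (TCAAGGTCA), a GC-rich ETS form (CCGGAAGT), CRE (TGACGTCA), NFY (CCAAT), YY1 (AAGATGGC) and CTCF core (AGNGGGCGC).

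In the Negative libraries no motif difference passed (exact permutation test, smallest adjusted p = 0.1143), although several were of like size. There, GATA stood at 4.67% in ES and 8.80% in HP, a difference of 4.13 percentage points against 4.47 in the positive sets, and of 5.20 without HP Negative replicate 3, whose GATA share was 4.49%. For ETS the Negative difference was 2.01 points against 1.72, and for TEAD -1.63 against -1.82. For RUNX it was smaller, 1.16 points against 3.29, and 2.43 without HP Negative replicate 3. For the MYC E-box it was -0.12 points against -0.69. The difference between stages in positive cells, less that in Negative cells of the same replicate, did not pass for any of the 18 motifs (exact permutation test, smallest adjusted p = 0.643). So these data give no motif whose change from ES to HP was shown to be particular to positive cells. When any 1 replicate number was left out, the 7 differences kept their sign and had the smallest p that 70 splits allow, 0.0286, which does not pass over 18 motifs. Among other settings, only GATA, RUNX and the TAL1 E-box passed in the High and Medium/High libraries alone, where TEAD differed by -0.67 points (adjusted p = 0.364 by the exact permutation test). With whole fragments searched, the TAL1 E-box (adjusted p = 0.130) and the MYC E-box (adjusted p = 0.129) did not pass the exact permutation test. With each site counted once per set, NRF1 (adjusted p = 0.0816) and the MYC E-box (adjusted p = 0.0857) did not pass the exact permutation test. Standardised for GC content, an alternative chosen after seeing the data, all 7 passed, with 4.33 points for GATA and -2.14 points for TEAD.

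**Figure D3:**
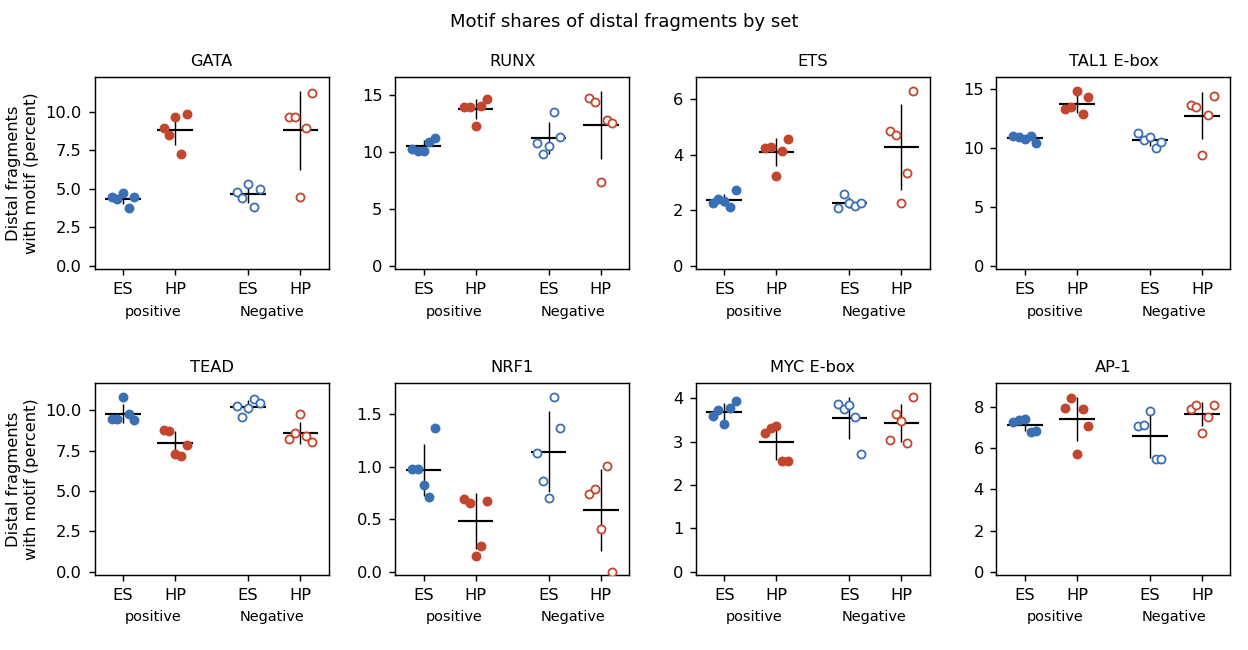
Share of distal fragments with each motif in the 150 bp around the fragment centre, in percent, for the 5 ES (blue) and 5 HP (red) sets of positive cells (filled) and Negative libraries (open); lines are means and vertical bars 1 SD. GATA, RUNX, ETS and TAL1 E-box shares of the positive HP sets lie above all positive ES sets, TEAD, NRF1 and MYC E-box shares below, and those of AP-1 overlap.

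Described by class, blood factor sequences were most frequent in HP-only sites and TEAD in ES-only sites. GATA was in 13.5% of HP-only sites, 5.13% of ES-only sites and 4.90% of sites found at both, against 10.1% of all 58911 distal sites of the series. RUNX was in 19.0, 11.4 and 11.2% of these classes, ETS in 5.37, 1.81 and 2.25% and PU.1 in 3.66, 1.64 and 1.62%. On the ES side, TEAD was in 13.3% of ES-only sites and in 8.61% and 8.67% of HP-only and shared ones, and the OCT4 octamer was in 1.44, 0.542 and 0.791%. Sites found at both ends had more KLF/SP (13.9%, against 9.27% of ES-only and 4.78% of HP-only sites) and CTCF core sequences (4.50%, against 1.34% and 1.29%). NRF1 and the MYC E-box were also most frequent there, at 0.602% against 0.293% of ES-only and 0.246% of HP-only sites, and at 2.93% against 2.49% and 2.3%. They also had a higher GC content, 55.9% against 52.7% and 51.3%, and lay nearer to a transcription start, with a median distance of 17712 bp against 25481 and 24573 bp. These are shares over sites, read from the fragment nearest each site's centre (for motifs, from its 150 bp window), and no test was made.

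Positive HP cells yielded more distal and fewer promoter fragments. The distal share was 24.2, 24.1, 29.5, 24.7 and 26.8% in the ES sets and 34.1, 33.1, 29.6, 29.3 and 29.7% in the HP sets. ES replicate 3 overlapped the HP range and no other ES set did. The mean was 5.31 percentage points higher in HP (25.8% ± 2.3 to 31.2% ± 2.26, SD, n = 5 each; exact two-sided permutation test, p = 0.0159). In the Negative libraries the difference was 4.22 points (exact permutation p = 0.0556), and 5.30 points without HP Negative replicate 3 (exact permutation p = 0.0238). Without replicate 1, 2 or 5 the difference in positive cells was 4.17, 4.39 and 5.92 points, each at an exact permutation p of 0.0571. Without replicate 3 or 4 it was 6.61 and 5.48 points, each at an exact permutation p of 0.0286.

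Within distal fragments, intronic ones rose at the expense of intergenic and exonic ones. The intronic share rose from 41.9% ± 1.30 to 47.0% ± 0.375, with all HP sets above all ES sets (exact permutation test, adjusted over 3 shares, p = 0.0119). The intergenic share fell from 41.5% ± 0.744 to 39.4% ± 1.07, also without overlap (adjusted p = 0.0119 by the exact permutation test). The exonic share fell from 16.6% ± 1.50 to 13.6% ± 0.934 (exact permutation test, adjusted p = 0.0159). The exonic fall had an exact permutation p of 0.0571 without replicate 1, 2 or 5, with values of -2.99, -3.13 and -2.40 points. In Negative libraries the intronic difference was 4.19 points and did not pass (exact permutation test, adjusted p = 0.3095), and it was 6.96 points without HP Negative replicate 3.

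The GC content of distal fragments was 57.1% ± 0.584 in ES and 56.2% ± 0.468 in HP, a fall of 0.862 points (exact permutation p = 0.0317). The Negative libraries showed -0.945 points. Without replicates 1, 2, 4 or 5 the exact permutation p was over 0.05, and the difference lay between -1.07 and -0.69 points over all 5 omissions. Promoter fragments did not differ past the threshold, at 65.6% and 65.9% (exact permutation p = 0.246). The median length of distal fragments was 199.6 bp in ES and 171.2 bp in HP (means of 5 set medians; exact permutation p = 0.0635). The HP sets of replicates 1, 2 and 5 had medians of 163, 143 and 157 bp, while those of replicates 3 and 4, at 195 and 198 bp, lay within the ES range of 184 to 215 bp. Motif shares of HP were thus read from fragments that tended to be shorter, in windows of the same 150 bp. In HP replicate 2 the window was longer than the median fragment, so it often included sequence outside the insert.

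When all 10 sets were drawn down to 2185 fragments, an ES set covered more promoters and an HP set a larger mean number of distal sites. Distinct promoters fell from 1393 ± 56.8 to 1242 ± 86.8 per set (SD, n = 5 each; exact permutation p = 0.0159). Distinct distal sites stood at 538.7 ± 56.8 and 632.0 ± 76.8 (exact permutation p = 0.0714), a difference that was not past the threshold. The draws took distal and promoter fragments together, so the distal share enters both numbers. In Negative libraries drawn to 818 fragments, HP differed by -38.9 promoters (exact permutation p = 0.0635) and 30.9 distal sites (exact permutation p = 0.111). Without HP Negative replicate 3 the latter was 44.5 (exact permutation p = 0.0238). The difference in promoters between the positive sets had an exact permutation p of 0.0571 without replicate 1, 2 or 3, at -146.5, -148.5 and -136.2 promoters.

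Sets of 1 stage shared distal sites more than sets of different stages did, but this was not found for promoters. For each pair of sets with different replicate numbers, the number of shared features was divided by that expected from the set sizes, and the log2 of this ratio was averaged over the 20 pairs within a stage and the 20 between ES and HP. For distal sites the mean was 1.10 within ES, 0.82 within HP and 0.50 between, so pairs of the same stage exceeded the others by 0.46 (log2; exact one-sided permutation test, p = 0.0079, the smallest p possible). In the Negative libraries the excess was 0.35 (exact permutation p = 0.0079). Without replicate 3 it was 0.45 with an exact permutation p of 0.0571. For promoters the means were 0.36, 0.44 and 0.36, with an excess of 0.04 (exact permutation p = 0.246). The ratio cannot exceed all features found over those of the larger set, which leaves large promoter sets little room. For promoters, ES 1 with ES 2 stood at 0.12 and HP 1 with HP 2 at 0.11. As a plain overlap, a pair of ES sets shared 48.7% of the smaller set's distal sites, a pair of HP sets 52.4% and an ES with an HP set 37.2%, while for promoters all 3 lay between 71.2% and 73.1%.

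**Figure D4:**
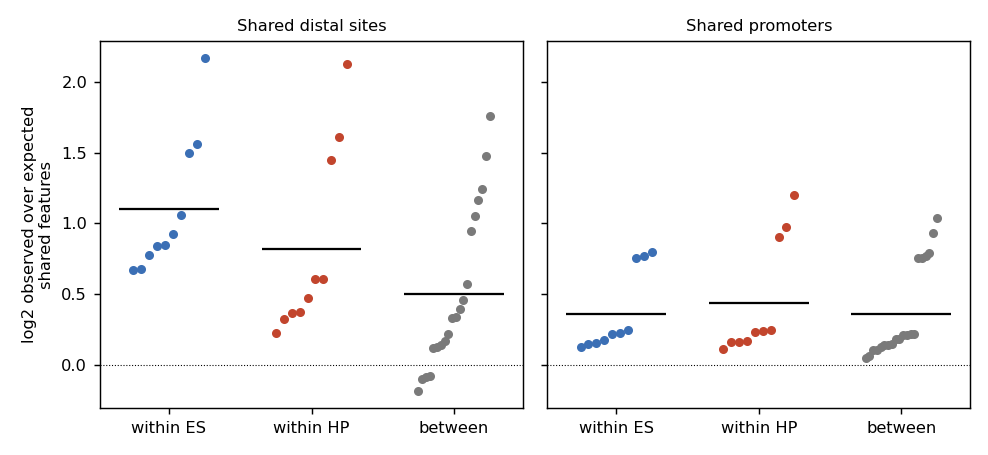
Shared distal sites (left) and promoters (right), as log2 of the number observed over that expected, for pairs of positive sets from different replicates: 10 pairs within ES, 10 within HP and 20 between the stages; each point is a pair, the line is the mean and the dotted line marks 0. For distal sites the means are 1.10, 0.82 and 0.50, and for promoters 0.36, 0.44 and 0.36.

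A fragment with identical ends at both stages can be followed from ES to HP. Per replicate, 10514, 7022, 477, 899 and 401 identical fragments were listed at both ends in some gate, and 74.9, 56.9, 27.0, 66.6 and 44.4% of them were positive at both. In replicate 3, 95.0% were positive at ES but 30.8% at HP, and in replicate 5 45.9% were positive at ES and 98.3% at HP. In replicate 3 the positive set and the Negative library held 29162 and 18728 fragments in ES, and 2308 and 1969 in HP. In replicate 5 they held 2185 and 880 in ES, and 4493 and 818 in HP. What set these opposite shares was not tested. In all, 10615 fragments were in 1 class of gate at each end (Low, or Medium and High). The class was the same at both ends more often than class frequencies give, by 10.4 ± 10.5 percentage points (unweighted mean of 5 replicates, SD). This mean does not describe most of the fragments. The excess was 0.435 points in replicate 1, with 6942 fragments, and 8.70 in replicate 2, with 3264. It was 16.3, 1.32 and 25.4 points in replicates 3, 4 and 5, with 83, 279 and 47 fragments.

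Same-numbered ES and HP sets shared 5.59 to 21.4% of the smaller set's fragments, with a mean of 9.79%, against 5.83% for differently numbered sets. The difference of 3.96 points was not past the threshold (exact one-sided permutation test over 120 pairings, p = 0.108), and it was -0.13 points without replicate 4, so it rested on that replicate. In the Negative libraries the means were 6.96% and 2.59%, a difference of 4.37 points (exact one-sided permutation test over 120 pairings, p = 0.0417). There, 3 ES libraries shared most with the HP library of their own number, against 1 ES set among the positive sets.

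No single feature passed a test between the stages across all features. In limma on log2 (fragments per 10000 listed + 1), 0 of 3486 distal sites, 0 of 9023 promoters and 0 of 3747 distal gene loci found in at least 4 of the 10 sets had an adjusted p under 0.05 (a background of 0%). At an unadjusted p under 0.05, 11 distal sites, 77 promoters and 27 loci were counted, fewer than 1 in 20 of those tested. The tests could use few fragments in the 3 small replicates, so 1-end features are given above and below by their values, not as calls.

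At gene loci the picture by function follows from counts in replicates 1 and 2, the large ones. A distal locus was the set of distal fragments whose nearest protein-coding start, within 100000 bp, was that of the gene. A locus was counted as higher at an end when it had more fragments there in both replicates at equal numbers, which over all 11071 loci held for 36.5% in HP (4046) and 14.6% in ES (1619). Over all 5 replicates the HP sets had 1.36 times the distal locus fragments of ES, so a list must be read against 1.36 and not against 1. Found at 1 end only in the full lists were 12.6% of loci for ES and 26.3% for HP. With at least 10 positive fragments, 50.9% of 4231 loci were higher in HP and 17.6% in ES. Counts of small lists are descriptions, with no test, and none of the list genes tested passed limma.

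Endothelial genes and blood surface genes had the highest ratios of HP to ES distal fragments among the 9 lists when all 5 replicates were summed. In replicate 1 alone the mesoderm and cardiac list, at 2.105, lay above blood surface and effector genes at 1.89, and in replicate 2 below them, at 1.24 against 1.94. Of 17 endothelial loci found, 13 were higher in HP and 0 in ES, and the list's summed fragments at equal numbers, as means over draws, were 75.3 in ES and 173.6 in HP, a ratio of 2.31. The values given for single genes in this and the next paragraphs are fragments in the full lists, where the HP set of replicate 1 was the larger one and the HP set of replicate 2 the smaller. Eng, which encodes the TGF-beta co-receptor endoglin, had no fragment in the ES sets and 14, 6, 0, 0 and 0 in HP replicates 1 to 5. Kdr had 0, 1, 1, 0 and 0 in ES and 13, 1, 0, 1 and 1 in HP. By contrast, Cdh5, which encodes VE-cadherin, had 6, 9, 2, 0 and 0 in ES and 22, 2, 0, 0 and 0 in HP, and so was higher in HP in replicate 1 and in ES in replicate 2. Tek, which encodes TIE2, had 2 fragments in ES and 4 in HP.

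Of 22 blood transcription factor loci 16 were higher in HP and 4 in ES, with a ratio of 1.55. With at least 10 positive fragments, 12 of 16 were higher in HP and 2 in ES, against 50.9% and 17.6% of all such loci. Runx1 had 4, 2, 0, 0 and 0 distal fragments in ES and 24, 7, 0, 0 and 1 in HP. In fragments per 10000 listed, that was 0.400 and 0.194 in the 2 large ES sets and 1.24 and 1.05 in the HP sets, although its limma difference of 0.30 ± 0.39 (log2, SE) did not pass (adjusted p = 1). Tal1 had 4, 3, 1, 0 and 0 in ES and 17, 6, 0, 0 and 0 in HP. Erg, an ETS factor of endothelium and stem cells, had none in ES and 10, 1, 0, 0 and 2 in HP. Spi1 had 6 fragments in ES and 7 in HP. The HP Negative libraries also held more: 12 Runx1 fragments against 2 in ES Negative ones, and 8 Erg fragments against 0.

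Of 18 loci of blood surface and effector genes 12 were higher in HP and 2 in ES, with a ratio of 1.88. Itga2b, which encodes CD41, the antigen used to sort HP cells, had 12 distal fragments in ES and 17 in HP. Kit had 0 and 4, Ptprc, which encodes CD45, 0 and 2, and Tyrobp, an adaptor of myeloid and natural killer cells, 0 and 7. Of 6 erythroid loci 4 were higher in HP and 1 in ES, with a ratio of 1.50. There Hbb-y, an embryonic globin gene, had 7 fragments in ES and 13 in HP, Klf1 had 1 and 3, Alas2 0 and 3, and Hba-x none.

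Pluripotency loci did not show the general excess of HP. Of 19 found, 4 were higher in HP and 5 in ES, and the sum at equal numbers was 76.7 in ES and 75.9 in HP, a ratio of 0.99 against 1.36 over all loci. Sox2 had 4, 3, 0, 0 and 0 fragments in ES and 1, 1, 0, 0 and 0 in HP. Nanog had 3, 4, 3, 0 and 0 in ES and 11, 3, 0, 0 and 0 in HP, and Dppa4 had none in ES and 6 in HP. Pou5f1 had no distal locus fragment at either end. AP-1 loci had a ratio of 1.05 and neural loci one of 0.86, with 4 of 10 neural loci higher in ES. Fos, in the AP-1 list, was rich at both ends with 44, 37, 8, 1 and 1 fragments in ES and 76, 25, 1, 2 and 2 in HP. At equal numbers that was 70.03 against 68.24. Jun had 9 and 7 fragments in the full lists, Junb 22 and 32, and Fosl2 0 and 5. Sox1, in the neural list, had 15 in ES and 7 in HP, Pax6 15 and 13, Otx2 5 and 2, and Neurod1 4 and 15. TEAD and YAP loci had a ratio of 1.47, with Tead1 at 31 fragments in ES and 59 in HP, Yap1 at 0 and 4, Tead3 at 3 and 10 and Tead4 at 12 and 16. Mesoderm and cardiac loci had a ratio of 1.59, with Mef2c at 0 and 14, Mesp1 at 8 and 11, Eomes at 3 and 7 and Hand1 at 21 and 26. At equal numbers Mesp1 stood at 6.72 in ES and 5.68 in HP and Hand1 at 15.6 and 15.3, so for these the larger HP number in the full lists went with set size.

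**Figure D5:**
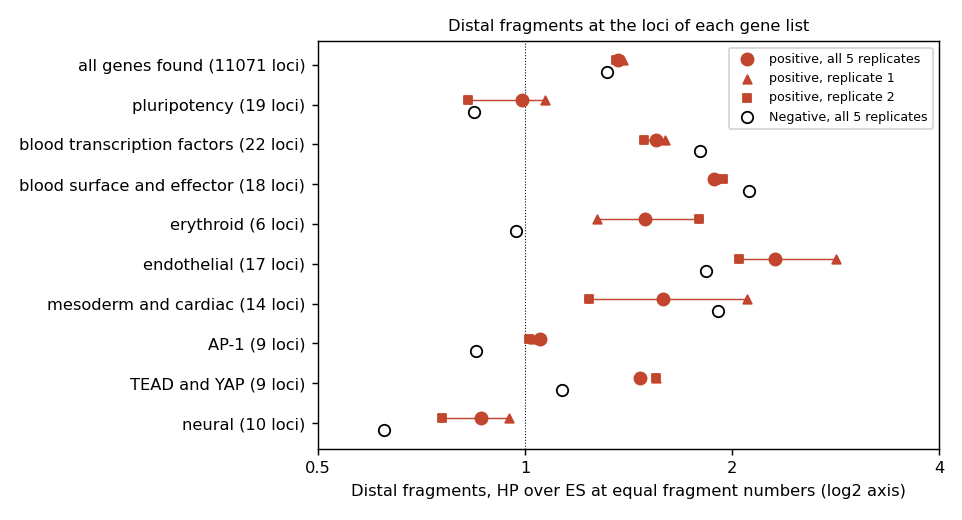
Ratio of distal fragments in HP over ES at the loci of each gene list, at equal fragment numbers, on a log2 axis: filled circles are all 5 positive replicates, triangles replicate 1, squares replicate 2, and open circles the Negative libraries. The endothelial list lies at 2.31 and pluripotency at 0.99, against 1.36 over all 11071 loci; no error over 5 replicates is drawn since replicates 1 and 2 hold most fragments.

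The Negative libraries ordered these lists alike in part. The ratio over all loci was 1.32 there, with blood transcription factors at 1.79, blood surface and effector genes at 2.11, mesoderm and cardiac genes at 1.91, endothelial genes at 1.83 and pluripotency genes at 0.84. Erythroid loci, at 0.97, lay below the Negative ratio of all loci, and those of TEAD and YAP, AP-1 and neural genes, at 1.13, 0.85 and 0.62, did too. Whether a list differed more between the ends in positive than in Negative cells was not tested.

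Summed over a list, promoters of blood surface and endothelial genes also had a higher ratio of HP to ES fragments than promoters at large. Over all 13621 promoters, 23.8% were higher in HP and 32.4% in ES in both large replicates, and 23.3% and 37.5% among the 9712 with at least 10 positive fragments. The ratio over all promoters was 0.88. It was 1.82 for blood surface and effector genes, 1.60 for endothelial, 1.46 for mesoderm and cardiac, 1.32 for erythroid, 1.29 for neural and 1.095 for blood transcription factor genes, and 0.89, 0.88 and 0.84 for pluripotency, TEAD and YAP, and AP-1 genes. By direction, 3 of 11 blood surface promoters were higher in HP and 0 in ES. The counts were 9 and 4 of 16 for endothelial promoters, and 11 and 8 of 22 for those of blood transcription factors. With at least 10 positive fragments these counts were 1 and 0 of 5, 7 and 3 of 12, and 8 and 8 of 17. In Negative libraries the ratio was 0.896 over all promoters, 1.455 for blood surface, 2.21 for endothelial and 1.98 for mesoderm and cardiac genes. Against a background of 7.74% found in HP only and 6.75% in ES only, 6 of 11 promoters of blood surface and effector genes were found in HP only and 0 in ES only. The same counts were 5 and 0 of 16 for endothelial, 5 and 0 of 22 for blood transcription factor, 2 and 0 of 5 for erythroid, 3 and 1 of 10 for mesoderm and cardiac, and 4 and 1 of 11 for neural genes. They were 1 and 0 of 9 for AP-1, 1 and 0 of 10 for TEAD and YAP, and 0 and 3 of 13 for pluripotency genes. The Itga2b promoter had no fragment in any ES set and 24, 7, 0, 0 and 0 in HP, and it had 14 in HP Negative and 0 in ES Negative libraries. At equal numbers it gave 19.4 of the 62.7 HP fragments of the blood surface list, and 0 of the 34.4 ES fragments. Tie1, which encodes an endothelial receptor, and Gata2 were named after their values were seen. The Tie1 promoter had 11, 1, 0, 0 and 0 in HP and the Gata2 promoter 10, 2, 0, 0 and 0, with 0 in all ES sets. Promoters of Zfpm1 and Mecom, in the same list as Gata2, were also named after their values were seen and went the other way. At equal numbers Zfpm1 stood at 27.1 in ES and 3.62 in HP, and Mecom at 21.5 and 7.65. On the ES side, the Pou5f1 promoter had 1, 3, 2, 0 and 0 fragments in ES and none in HP. The Fos promoter had 11, 9, 4, 0 and 1 in ES and 5, 1, 0, 0 and 0 in HP, whereas that of Junb had 1, 1, 2, 0 and 1 in ES and 17, 5, 0, 0 and 2 in HP. The Runx1 promoter went against its distal locus, with 6, 8, 3, 0 and 0 in ES and 9, 1, 0, 0 and 0 in HP, which at equal numbers was 11.4 against 5.65.

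Fragments of the mitochondrial genome were listed in ES and not in HP. The ES sets held 65, 63, 23, 4 and 4 of them, 133 distinct ones in all, and the HP sets and HP Negative libraries held 0. The promoter of mt-Nd5, which encodes a subunit of respiratory complex I, was found in ES only on this account, with 59, 61, 23, 4 and 4 fragments. Plasmid lists cloned from HP chromatin did hold mitochondrial fragments, 44 in the reporter vector and 99 in the entry vector.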

How the data were processed

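Venus-YFP sorted ES and HP libraries were compared. Per the methods, the authors trimmed reads with Trim Galore, mapped them to mm10 with Bowtie2, kept high-quality pairs (SAMtools), wrote each pair as 1 interval (bedtools), removed duplicates, and filtered the fragments against control libraries, plasmid lists and ATAC-seq peaks. The submitters' notes also name HOMER. The sources used here do not give the stage of those peaks. The authors deposited sorted lists as distal and promoter intervals with no read numbers. Plasmid lists were deposited with read counts, not normalized, and used here only for membership, that is, for sorted fragments with identical ends in them.

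Sorted starts were moved by 1 bp to match the plasmid lists. Sites were annotated with GENCODE vM21 on GRCm38. Sets were drawn to equal numbers 100 times. Differences used exact permutation tests. Features in at least 4 of 10 sets were tested with limma 3.58.1 (R 4.3.3; Python 3.11.15) on log2 (fragments per 10000 + 1), on 1 draw, with Benjamini-Hochberg adjustment over all features. The step was tested on simulated data. Named features were, per class, the 5 in most replicates (ties by fragments), and per gene list the first 3 genes and that with the largest difference; 1 named site is not reported here. Members, lists and motifs were chosen with earlier results of these data known. No column of other samples was used. Alternatives covered draws, thresholds, filters, gates and each replicate left out. Replicate numbers did not pair the sets by the rule used (every correlation of deviations over 0.1; they ranged from 0.0016 to 0.19), so the block is given only as an alternative.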

Additional observations from a re-analysis of the deposited data

Results flagged for a closer look

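In 12 of 73 groups of 5 values, 1 sample lay far from the other 4, where chance gives 3.65. HP Negative replicate 3 did so in 3 measures of its distal fragments, with a GC content of 57.6%, an intronic share of 33.9% and an exonic share of 22.7%. ES Negative replicate 5, one of the smallest libraries, did so in an intergenic share of 50.0%, an intronic share of 35.9% and a MYC E-box share of 2.73%. HP positive replicate 4 had an intergenic share of 37.5% and an exonic share of 15.2%, away from the other HP sets. The ES positive set of replicate 5 had an intronic share of 39.7%, and that of replicate 3 a TEAD share of 10.8%. Promoter fragments of HP positive replicate 3 had a GC content of 66.5%. HP Negative replicate 4 had a log2 ratio of 0.48 between fragments found in HP and in ES reporter vector lists, where the other HP Negative libraries were below 0.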

How the results depend on the processing

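Among the values that answer a comparison, 240 alternatives kept direction and call, 27 counts or untested values moved, 5 values reversed, 2 newly passed and 23 no longer passed the threshold. Alternatives for GC, intronic fragments only, other denominators, HP Negative replicate 3 and the block of fragments per set were chosen after seeing the data. Replicate block: with exact sign flips within replicate numbers, where the smallest p is 0.0625, the values stayed at 5.31 (distal share), -0.86 (GC), -2.06 (intergenic), 5.12 (intronic), -3.06 (exonic) and -150.6 (promoters per set) and none passed, so 0 motifs and 0 annotation shares did; limma with the block called 0 features in each table. High and Medium/High libraries alone gave -0.63 for GC, -2.16 for exonic share and 3 motifs. Without fragments also in Negative, length differed by -28.9 bp (exact permutation p = 0.0476). Distal sites in ES only, HP only and both were 3542, 7396 and 4505 with at least 2 fragments, 3350, 5844 and 3259 in at least 2 replicates (promoters in ES only 1628), and 1946, 2376 and 449 with all sets drawn to the smallest, where promoters were 2586, 2133 and 2400. The excess of shared distal sites was 0.31 with at least 2 fragments (exact permutation p = 0.0635), and identical fragments gave 2.44 points by the Jaccard index (exact permutation p = 0.0167). limma called 5 distal sites when 2 sets sufficed (2 higher in HP, 3 in ES), and 1 promoter, mt-Nd5, in the full lists and in a further draw. The cause was not tested. Leaving out 1 replicate gave 4.17 to 6.61 for distal share, -1.07 to -0.69 for GC, -3.46 to -2.40 for exonic share, 0 motifs past the threshold throughout, 8709 to 13085 HP-only and 4249 to 7181 shared sites, 1034 to 1619 ES-only promoters (replicate 1 setting the extremes), -176.4 to -136.2 promoters per set, 0.43 to 0.48 for shared sites, -0.13 to 6.24 for identical fragments, and -0.48 to 0.80 and -0.60 to 0.45 for the source ratios of the reporter and entry vector. Set size, from 2185 to 193427 fragments, limits all of these.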

Other observations

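The chromatin a fragment was cloned from gave no difference past the threshold between the stages. The log2 ratio of the percent of a set found in the HP plasmid list to that in the ES list had a mean of -0.74 in ES and -0.40 in HP for the reporter vector (exact permutation p = 0.722), and of -0.29 and -0.27 for the entry vector (exact permutation p = 0.976). Both differences turned negative without replicate 3, at -0.48 and -0.60. The single HP sets ranged from -2.50 in replicate 2 to 1.95 in replicate 3 for the reporter vector.

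Across features with at least 10 drawn fragments, the log2 ratio of HP to ES in replicate 1 correlated with that in replicate 2 with r = 0.590 over 1774 distal sites, 0.453 over 7708 promoters and 0.571 over 2684 distal loci. Among features found at both ends, r was 0.284, 0.272 and 0.505. Features are not independent replicates and the filter acts on the same fragments, so this is a description with no test.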
